A study of Mus musculus with 15 samples.

Results

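The genes of the hair fibre and its sheath were followed through RNA of whole mouse eyes with their eyelids, which carry the hair follicles of the lid skin and its margin. They were 72 of the 20418 gene symbols measured, chosen by name: every keratin-associated protein gene (Krtap followed by a digit), the keratins of the hair shaft and of the inner root sheath, trichohyalin with its relative Tchhl1, the deiminases Padi1 and Padi3, and the transcription factors Hoxc13, Foxn1 and Msx2. By role they were 7 inner root sheath keratins, 9 hair shaft keratins, 49 keratin-associated proteins, 4 trichohyalin and deiminase genes and 3 transcription factors. Krt81, named with them, had no entry in the tables used here. The 15 libraries came from BALB/c mice onto whose background the Egr1-/- allele of a C57BL/6 line had been crossed over 4 or 5 generations. At birth there were 2 wild-type and 2 Egr1-/- libraries, and in adults 1 wild-type and 2 Egr1-/- libraries. At day 3, single eyes of 4 mice were sequenced. Mice E24 and E29 (Egr1-/-) each had 1 eye with open (unfused) and 1 with closed eyelids, E32 (Egr1-/-) had both eyes open, and the littermate control E28 (Egr1+/-) had both eyes closed. No animals are named for the newborn and adult libraries, so p-values there speak only of how the libraries spread.

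As background, a growing hair is built in concentric layers. Matrix cells at the base of the follicle give rise to the inner root sheath, which moulds the hair and is filled by the keratins Krt25 to Krt28 and Krt71 to Krt73 together with trichohyalin. Inside it, cuticle and cortex of the shaft fill with hair keratins such as Krt35, Krt85 and Krt31, and only then with keratin-associated proteins, which crosslink the filaments through disulfide bonds and come in high-sulfur, ultrahigh-sulfur and glycine- and tyrosine-rich classes. Hoxc13 and Foxn1 are transcription factors that hair keratin genes need, Msx2 is a homeobox factor of the matrix, and Padi1 and Padi3 convert arginine to citrulline in trichohyalin. Eyelids of mice fuse before birth and reopen later, and lashes and lid hairs grow in this time. In tissue RNA, fewer hair-forming cells and less RNA per cell cannot be told apart.

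The bases before the start site are shown for 1 gene of each structural role, because these genes shared the largest differences described here. They are 250 bases from RefSeq, build GRCm38.p6, read 5′ to 3′ on the strand of the gene, with 3 kinds of motif in capitals: the TATA box (TATAAA), the LEF1/TCF core (CTTTGAA or CTTTGAT) and the HOXC13 core, which was searched as TTTATNAA, TTTATNAG, TTTATNGA, TTTATNGG, TTAATNAA, TTAATNAG, TTAATNGA and TTAATNGG, all on both strands. Krt71, an inner root sheath keratin, lies on the minus strand with this window at chr15:101743098-101743347. Krt31, a cortex keratin, has it at chr11:100050552-100050801 (minus strand), Krtap3-1, a keratin-associated protein, at chr11:99566631-99566880 (minus strand), and Tchh, trichohyalin, at chr3:93442080-93442329 (plus strand).
Krt71: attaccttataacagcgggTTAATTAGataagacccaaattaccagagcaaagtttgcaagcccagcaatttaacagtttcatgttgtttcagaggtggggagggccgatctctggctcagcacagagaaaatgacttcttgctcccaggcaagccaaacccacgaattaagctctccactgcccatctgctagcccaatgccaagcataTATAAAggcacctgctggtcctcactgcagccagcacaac
Krt31: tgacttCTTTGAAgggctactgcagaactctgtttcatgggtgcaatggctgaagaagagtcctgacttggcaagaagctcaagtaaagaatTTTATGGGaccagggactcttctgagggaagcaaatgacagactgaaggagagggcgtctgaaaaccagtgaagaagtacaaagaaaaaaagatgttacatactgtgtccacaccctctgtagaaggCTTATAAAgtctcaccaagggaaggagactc
Krtap3-1: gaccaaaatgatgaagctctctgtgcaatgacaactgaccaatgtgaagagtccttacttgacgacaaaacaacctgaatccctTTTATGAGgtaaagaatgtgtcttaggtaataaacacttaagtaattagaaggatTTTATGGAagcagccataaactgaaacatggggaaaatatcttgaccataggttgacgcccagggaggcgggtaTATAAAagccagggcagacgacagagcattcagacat
Tchh: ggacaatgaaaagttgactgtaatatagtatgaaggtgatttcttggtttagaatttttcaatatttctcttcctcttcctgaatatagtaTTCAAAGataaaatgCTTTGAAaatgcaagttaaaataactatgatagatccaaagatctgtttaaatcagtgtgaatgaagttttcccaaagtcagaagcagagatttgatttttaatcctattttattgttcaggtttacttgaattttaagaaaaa

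In Krt71 the TATA box began at position -40 from the start, and a HOXC13 core at -231. In Krt31 the TATA box at -29 overlapped a HOXC13 core at -31 on the other strand, so that 1 run of capitals holds both. A LEF1/TCF core at -244 and another HOXC13 core at -158 lay upstream of it. Krtap3-1 had a TATA box at -37 and HOXC13 cores at -111 and -166, and Tchh had LEF1/TCF cores at -144 and -159 and no TATA box. A promoter was listed for 62 of the 72 genes. Over windows of 300 bases (250 before and 50 after the start), the TATA box was found in 75.8% of these 62 and in 14.2% of all 27025 promoters. By role it was found in 7 of 7 inner root sheath keratins, 4 of 5 hair shaft keratins and 36 of 44 keratin-associated proteins, and in none of the 4 trichohyalin and deiminase genes or the 2 transcription factors listed. The LEF1/TCF core was found in 25.8% of the 62 against 8.77% of all promoters, and the HOXC13 core in 54.8% against 19.4% (45.2% against 16.4% when a core overlapping a TATA box was not counted). The 62 windows were also richer in A and T, with a median of 57.8% against 47.3%, and these motifs are made mostly of A and T. A match is a match of letters only.

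Reads in transcripts ran from 20334849 to 43907093 per library. Egr1 went against the genotype labels: it stood at 33.0 CPM (reads scaled to a common library size by TMM) in the adult wild type and at 256.0 and 184.4 in the adult knockouts, at 46.1 and 60.7 in newborn wild types and at 214.4 and 273.6 in newborn knockouts, and at 99.3 and 110.3 in the eyes of E28 against 156.6 to 366.5 in the other day-3 eyes. The part of Egr1 that the allele removes is not given in the sources used here, and the libraries are called labelled knockouts below. Of the newborn and adult libraries, 3 stood apart. In newborn wild type 1, reads in transcripts were 75.6% of the authors' library total, against 99.5% to 112.4% elsewhere, and 1109 olfactory receptor genes, a group examined after the data were seen, had 5926 reads against 762 to 1940 in the other newborn and adult libraries. In newborn labelled knockout 1, lens genes summed to 372.0 CPM, against 51200 to 57280 in the other newborn libraries. In adult labelled knockout 1 they summed to 8035 CPM, against 37370 and 49980 in the other adults, and the cornea keratin Krt12 stood at 2.64 CPM against 6411 and 3860.

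The 72 genes were carried above all by 1 eye. The right eye of E32 held 115505 of their reads, 73.8% of those in all 15 libraries. It was the highest library for 63 of the 68 genes with at least 10 reads over all libraries, against 6.68% of all such genes. Its own reads counted towards that filter, so genes high there passed it more easily. Of the 68, the 5 others were Padi1, highest in adult labelled knockout 2, and Krtap9-5, Krtap16-1, Krtap31-1 and Krtap31-2, highest in newborn wild type 1. The 72 genes summed to 4030 CPM there, to 124.0 to 586.7 in newborn libraries, to 199.3 in the left eye of E32 and to 34.4 to 66.05 in all other libraries.

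Inner root sheath keratins had the highest sum of the 5 roles except in the adults and the open eye of E29, where trichohyalin with the deiminases was higher. They summed to 105.8 and 411.9 CPM in newborn wild types, 97.5 and 74.6 in newborn labelled knockouts, 2403 in the right and 130.1 in the left eye of E32, 23.8 and 22.7 in the open eyes of E24 and E29, 22.3 to 25.8 in the 4 closed eyes and 13.8 to 19.2 in adults. Hair shaft keratins summed to 12.7 and 54.2 CPM in newborn wild types, 7.33 and 6.95 in newborn labelled knockouts, 579.5 and 9.95 in the right and left eyes of E32, 1.58 and 1.55 in the other open eyes, 0.44 to 4.95 in closed eyes and 1.41 to 1.85 in adults. Keratin-associated proteins summed to 17.7 and 33.7 CPM in newborn wild types, 4.63 and 4.57 in newborn labelled knockouts, 441.3 and 3.36 in the eyes of E32, 1.24 and 0.49 in the other open eyes and 0.50 to 1.43 in adults. The closed eyes were lowest for this role: 45 of the 49 genes had no read in any of the 4, and the role had 5 reads in all of them together. Of the newborn wild types, replicate 2 was 3.41 times replicate 1 over all 72 genes summed, and replicate 1 (171.9 CPM) was at the level of labelled knockout 1 (173.6). Replicate 1, the library with the many olfactory receptor reads, had reads of 48 of the 49 keratin-associated proteins, against 41 in replicate 2. As the mean level of these genes there was 1.67 times that of the olfactory receptors per kilobase, against 10.9 times in replicate 2, a read in replicate 1 is not taken as expression. Over newborn wild type 2, the highest of the other libraries, the right eye of E32 was 5.83 times higher for inner root sheath keratins, 10.7 times for hair shaft keratins and 13.1 times for keratin-associated proteins.

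**Figure D1:**
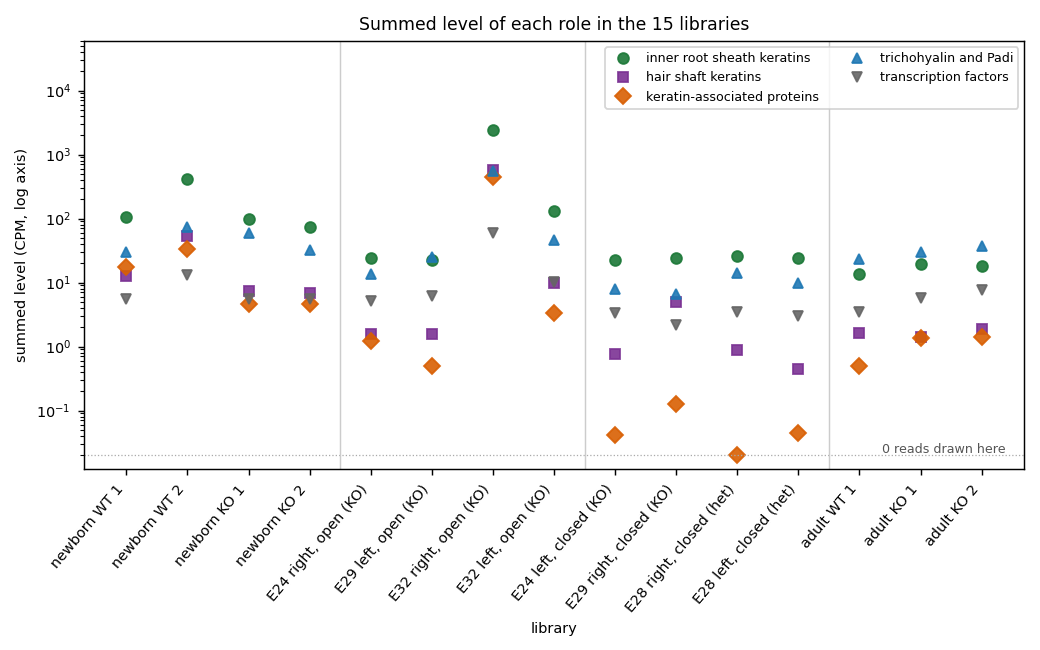
Summed level of the genes of each role (CPM, log axis) in the 15 libraries, 1 point per role and library, with newborn, open, closed and adult eyes separated by lines and a sum of 0 reads drawn at the dotted line. All 5 roles are highest in the right eye of E32, where the inner root sheath keratins reach 2403 CPM, and keratin-associated proteins are lowest in the closed eyes.

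Per exon length, on the authors' RPKM scale, Krt71 led in the right eye of E32 with 442.0, followed by Krt25 (267.4) and Krt27 (202.5), all of the inner root sheath. Krt35, among the first keratins of the hair shaft, reached 67.6 RPKM there, and trichohyalin 61.7. The shaft keratins Krt31, Krt33a and Krt85 reached 39.3, 35.3 and 34.9 RPKM. Keratin-associated proteins went up to 33.7 RPKM (Krtap3-1), with Krtap1-3 at 27.1, Krtap8-1 at 26.8 and Krtap17-1 at 25.6. They differed by location: the 21 genes on chromosome 11 had a median of 12.3 RPKM and the 21 on chromosome 16 a median of 0.70, while the 3 on chromosome 10 had 13.4 and the 4 on chromosome 7 had 3.04. On chromosome 16, 4 genes had at least 100 reads, among them Krtap8-1 (26.8), Krtap11-1 (16.9) and Krtap7-1 (15.9 RPKM). Near-identical copies in these families may share reads, so that values of single keratin-associated proteins, of Krt31, Krt33a, Krt33b and Krt34, and of Krt86 are uncertain.

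**Figure D2:**
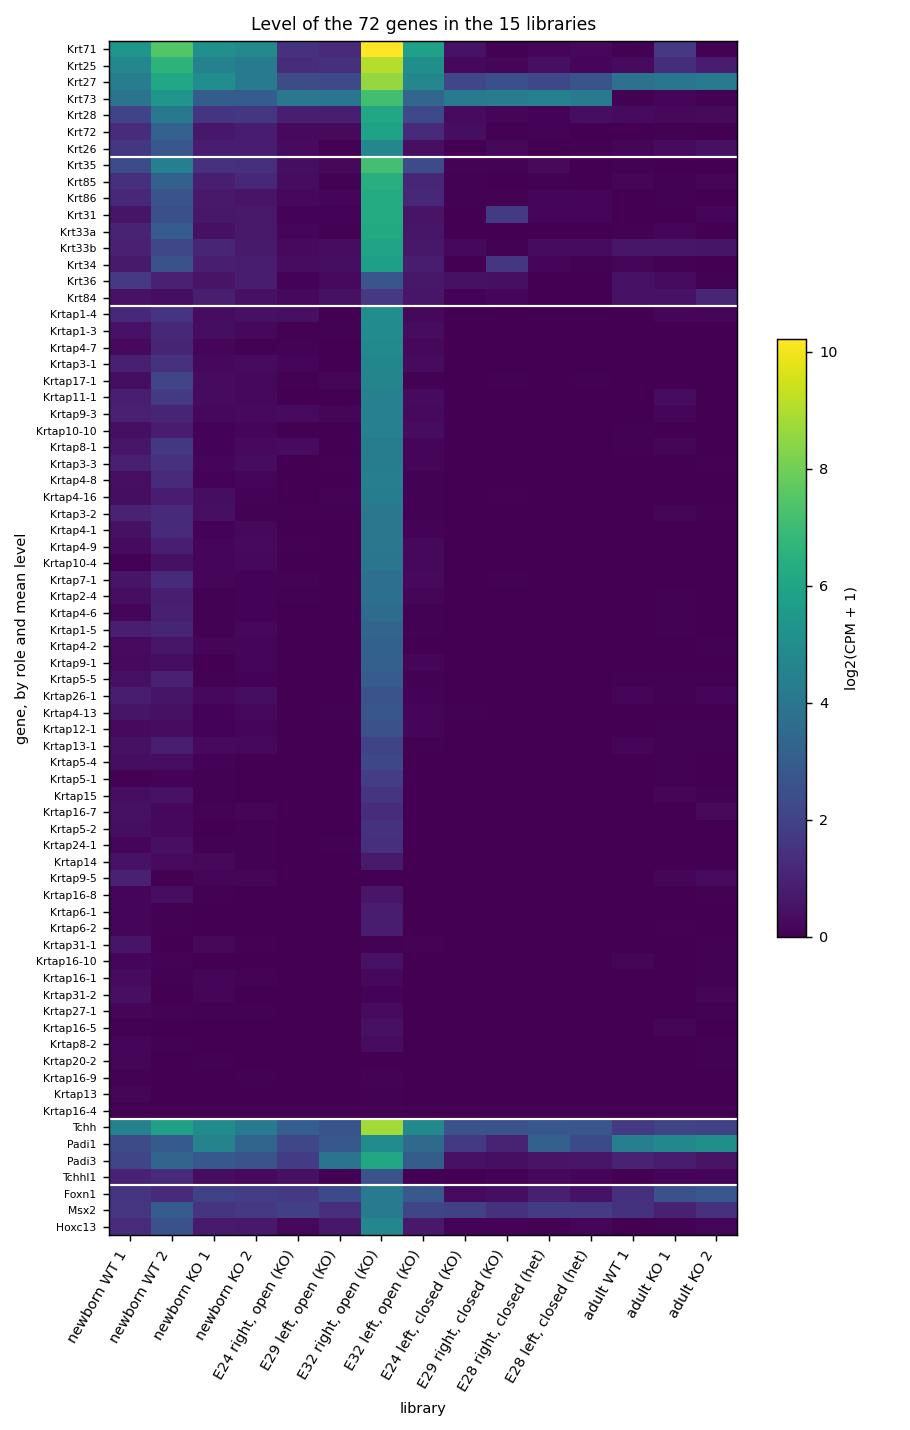
Level of each of the 72 genes (log2(CPM + 1), colour) in the 15 libraries, with genes grouped by role (white lines; inner root sheath keratins at the top, then hair shaft keratins, keratin-associated proteins, trichohyalin with deiminases, and transcription factors). The column of the right eye of E32 is the brightest in all roles, newborn wild type 2 comes next, and Krt27, Krt73, Tchh and Padi1 stay visible where most other genes are dark.

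The eyes of E32 shared genotype, age and open lids but differed in these genes. Krt71 had 33925 reads (1184 CPM) in the right eye and 1422 (56.8 CPM) in the left, a ratio of 20.8 (95% interval 19.8 to 21.98, which covers counting error only, as do those below). Krt31 had 2193 and 11 reads, a ratio of 174.1 (97.1 to 349.3). Krtap3-1 had 717 and 6 reads, a ratio of 104.4 (47.7 to 285.3). With a single eye on each side there is no test, and the ratios describe these 2 eyes.

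The ratio was higher for hair shaft than for sheath keratins and highest for keratin-associated proteins, while single genes within a role differed. Summed over genes it was 18.5 (17.8 to 19.1) for inner root sheath keratins, 58.3 (51.4 to 66.3) for hair shaft keratins and 131.5 (106.1 to 165.0) for keratin-associated proteins. It was 11.98 (11.3 to 12.7) for trichohyalin and deiminases and 5.83 (5.11 to 6.67) for the transcription factors. Within the sheath, Krt26 (79.5, with 8 reads in the left eye) and Krt72 (42.9) lay above Krt71, Krt25 (16.3), Krt27 (15.2) and Krt73 (15.1). Within the shaft, Krt85 reached 74.7, Krt35 34.5 (28.4 to 42.3), and Krt84 4.37. Krtap17-1 had 687 reads against 1 (599.9, 107.3 to 23730) and Krtap8-1 548 against 3 (159.5, 54.3 to 775.9). Among the factors, Hoxc13 had 720 and 16 reads (39.3, 24.0 to 69.1), whereas Foxn1 had 521 and 158 (2.88, 2.41 to 3.46) and Msx2 480 and 84 (4.99, 3.95 to 6.37). Of the deiminases, Padi3 had 1958 and 179 reads (9.55, 8.19 to 11.2) and Padi1 851 and 268 (2.77, 2.41 to 3.19). Of the 62 genes with at least 10 reads in the 2 eyes, 50 were at least 10-fold higher in the right eye, taking 3 reads as the floor, against 0.87% of all genes (140 of 16098).

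**Figure D3:**
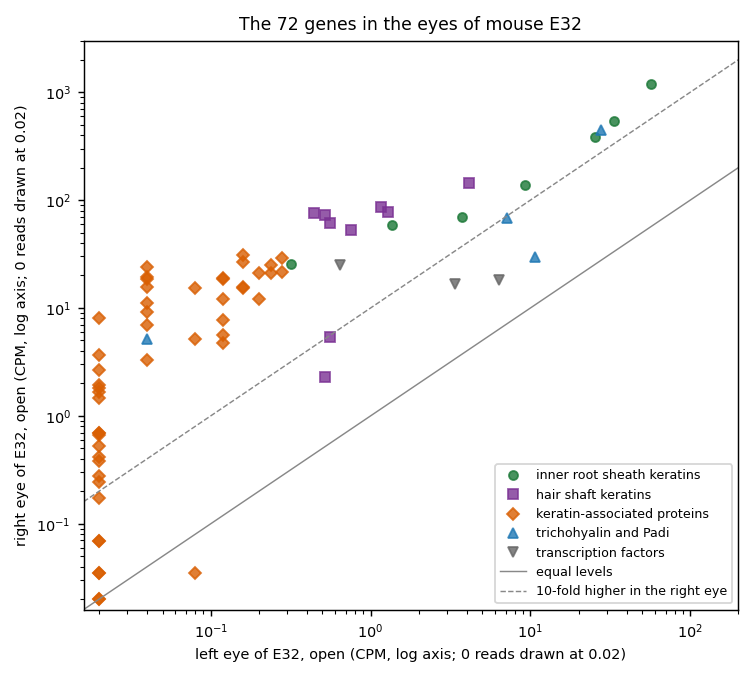
CPM of each of the 72 genes in the right against the left eye of E32 (both axes log, 0 reads drawn at 0.02), with lines for equal levels and for a 10-fold higher level in the right eye. Most keratins and keratin-associated proteins lie above the 10-fold line, while Foxn1, Msx2 and Padi1 lie between the lines.

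The sums of skin surface genes did not show a difference of this size. Summed CPM in the right over the left eye was 1.24 for basal epidermis (Krt5, Krt14 and others), 2.50 for cornified epidermis, 1.26 for sebaceous and Meibomian glands, 1.21 for conjunctiva, 1.04 for melanocytes and 0.90 for the dermal papilla, the cell cluster that instructs the follicle. For follicle signalling it was 1.47, with 0 of 29 genes at least 10-fold higher. For other genes of follicle structure the sum, carried mostly by Krt15 and Krt17, was 1.55, and gene by gene the median ratio was 1.92. In that list 3 of 22 genes were at least 10-fold higher in the right eye: Prr9 (49.9 against 0.80 CPM), S100a3 (92.5 against 8.15) and the desmoglein Dsg4 of the hair shaft (9.53 against 0.080). Per 100 CPM of basal epidermis, the 72 genes summed to 40.0 CPM in the right eye of E32 and 2.46 in the left, to 31.1 and 61.1 in newborn wild types, 2.64 and 1.68 in newborn labelled knockouts, 0.81 and 1.30 in the other open eyes, 2.52 to 4.74 in closed eyes and 0.52 to 1.34 in adults. Hair keratins outside the 72, named after their values were seen, were also higher in the right eye, with Krt83 at 54.0 against 0.84 CPM and Krt82 at 19.8 against 0.16. The eyes of E32 also differed in rod genes of the retina. These summed to 141.5 CPM in the right eye and 19.5 in the left, against 236.4 to 502.9 in the other day-3 eyes. Lens genes summed to 55290 and 65090 CPM, both within the 54050 to 77280 of the other day-3 eyes. The part of such tissue differences in the levels of the hair genes was not tested.

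**Figure D4:**
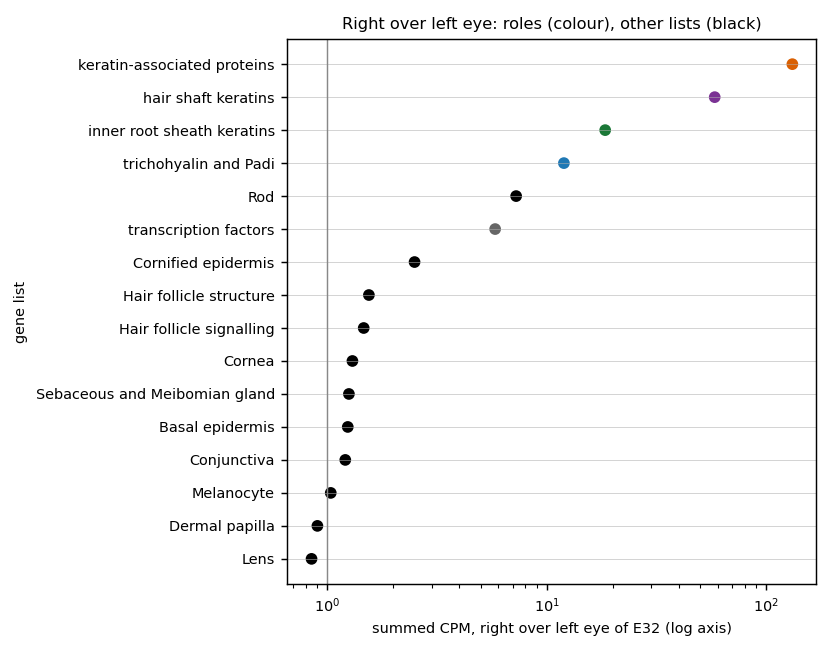
Summed CPM in the right over the left eye of E32 (log axis) for the 5 roles of the hair genes (coloured points) and 11 lists of other genes (black points). Keratin-associated proteins (131.5) and hair shaft keratins (58.3) are farthest to the right, and basal epidermis, melanocyte and dermal papilla lists lie between 0.90 and 1.24.

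A few genes kept a level where the rest were near 0. Krt73, an inner root sheath keratin, stood at 14.97 to 21.6 CPM in the open eyes of E24 and E29 and in all 4 closed eyes, above its 9.23 CPM in the left eye of E32, while Krt71 was at 0.042 to 1.77 CPM and Krt25 at 0.088 to 1.70 in the same 6 eyes. In adults Krt73 had 1, 2 and 1 reads. Krt27, also of the sheath, stood at 3.55 to 5.34 CPM in closed eyes and at 13.1, 14.9 and 16.8 CPM in adults, and trichohyalin at 5.10 to 5.92 CPM in closed eyes. In the closed eye of E29 alone, Krt31 had 55 and Krt34 had 49 reads, whereas Krt33a and Krt85, which are usually made in the same cells, had none. Krtap9-5 and Krtap20-2 had no read in either eye of E32, although Krtap9-5 had 19 reads in newborn wild type 1.

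At birth, most hair genes had lower values in labelled knockouts, and few passed the test. The comparison asks how the eye with its lids differs between genotypes at birth. By edgeR's quasi-likelihood test with Benjamini-Hochberg adjustment over all genes, 4 of the 50 genes tested fell and 1 rose, against 9.38% and 14.6% of all genes. The 22 genes with too few reads to test were all keratin-associated proteins. The median log2 fold change of the 50 was -2.26, against -0.07 for all genes, and 47 of the 50 were negative. Both labelled knockouts were below both wild types for 45 of the 61 genes with at least 10 reads in the newborn libraries, against 34.3% of all genes, and above both for 2 (Padi1 and Foxn1), against 32.4%. Reads of the wild types counted towards this limit and towards that for testing, so genes high in wild types passed more easily.

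Krt73 fell by 1.95 ± 0.44 on the log2 scale (SE, 2 against 2 libraries, edgeR adjusted p = 0.0203), from 14.3 and 39.0 CPM in wild types to 7.10 and 6.84. Krt26, also of the inner root sheath, fell by 2.49 ± 0.61 (edgeR adjusted p = 0.0257), from 2.19 and 5.82 CPM to 0.70 and 0.73. The groups did not overlap for either gene. Krt35, among the first of the shaft cortex and cuticle, fell by 2.88 ± 0.75 (edgeR adjusted p = 0.0384), from 4.14 and 20.5 CPM to 1.77 and 1.61. Krtap1-4, a high-sulfur protein, fell by 2.32 ± 0.68 (edgeR adjusted p = 0.0478), from 1.24 and 2.01 CPM to 0.27 and 0.38. Padi1, which is also made in the epidermis, rose by 1.57 ± 0.44 (edgeR adjusted p = 0.0399), from 4.14 and 6.37 CPM to 22.6 and 9.03. Krt71, the most abundant, stood at 40.7 and 179.2 CPM in wild types and at 34.4 and 28.9 in labelled knockouts and did not pass. It passed when either adult labelled knockout was left out (-1.81 ± 0.53, edgeR adjusted p = 0.0311, and -1.78 ± 0.55, edgeR adjusted p = 0.0388).

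By role, 2 of 7 inner root sheath keratins fell (median -1.95), 1 of 9 hair shaft keratins (-2.11), 1 of the 27 keratin-associated proteins tested (-2.62) and 0 of 3 transcription factors (-1.13). All 7 sheath keratins and all 27 keratin-associated proteins had negative values, as did 8 of 9 shaft keratins. For keratin-associated proteins, this direction is partly set by which genes had enough reads to be tested. At least 10 reads were reached by 13 and 24 of them in the wild types, 1 in each labelled knockout and 0 in each adult library. Those high in wild types were thus tested more easily. All 7 sheath and all 9 shaft keratins were tested, so this limit does not apply to them. Genes of the skin surface went the other way: 10 of 10 genes of basal epidermis rose (median 3.53; Krt14 3.62 ± 0.54) and 5 of 5 of conjunctiva (median 3.17; Krt4 4.19 ± 0.53). Their sums were 552.4 and 960.6 CPM in wild types against 6565 and 7404 in labelled knockouts for basal epidermis. Of 22 other genes of follicle structure, 8 rose and 1 fell, Prr9 (-2.22 ± 0.65), a small proline-rich protein gene. Of 29 follicle signalling genes tested, 9 rose and 3 fell, so that in both lists more genes rose than fell. All 7 rod genes fell, and the part of such tissue differences in the hair genes was not tested.

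The count of calls moved with single libraries. Without newborn wild type 1, wild type 2 or labelled knockout 1, 0 of the hair genes passed, and without labelled knockout 2 it was 1, while the median stayed between -1.14 and -2.87. Leaving out an adult library, which shares the estimate of the spread, gave 10 to 13, against 27.5% to 29.1% of all genes. Leaving out a newborn library left 1 in its group, and fewer of all genes were called then as well. With wild type 1 left out, 0 genes of any kind passed the test. In the labelled knockouts, the mean level of the 49 keratin-associated proteins per kilobase was 2.46 and 3.06 times that of the olfactory receptor genes, between the values of the wild types, and the part of such reads in the calls was not tested. DESeq2 called 13 genes, which included all 5 above: 12 were lower and 1 higher, against 12.7% and 17.1% of all genes.

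From newborn to adult, most hair genes fell, and many had few or no reads in adults. Of the 50 genes tested, 35 fell and 1 rose (edgeR adjusted p under 0.05), against 24.0% and 25.3% of all genes. Their median log2 fold change was -4.64, against -0.04 for all genes. All 3 adult libraries were below all 4 newborn libraries for 41 of the 61 genes with at least 10 reads in the newborn and adult libraries (22.8% of all genes), and above them for 0 (21.9%). Newborn reads counted towards this limit and towards that for testing, so genes high in newborns passed more easily. At least 10 reads were reached by 23 to 46 hair genes in single newborn libraries and by 7 to 9 in single adult libraries. Of keratin-associated proteins, 0 reached 10 reads in any adult library. By role, 6 of 7 inner root sheath keratins, 7 of 9 shaft keratins, 18 of the 27 keratin-associated proteins tested, 3 of 4 trichohyalin and deiminase genes and 1 of 3 transcription factors fell.

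Among sheath keratins, Krt71 had 857, 4192, 1032 and 752 reads in the newborn libraries and 1, 51 and 1 in adults, and fell by 7.94 ± 1.27 on the log2 scale (edgeR adjusted p = 0.00199). Without adult labelled knockout 1, which held the 51 reads, the value was -10.18. Krt25 stood at 17.3 to 95.04 CPM at birth and at 0.23 to 1.54 in adults, a fall by 6.06 ± 0.70 (edgeR adjusted p = 4.80e-04). Krt73 had 1604 newborn and 4 adult reads in all and fell by 7.82 ± 0.66 (edgeR adjusted p = 1.25e-04). Groups did not overlap for these 3 genes. Where adults had 1 or 2 reads, the ratio of pooled levels is given: Krt72 was 171.2-fold higher in newborns (95% interval 30.5 to 6786), Krt35 435.2-fold (77.8 to 17210), Krt86 115.2-fold (20.4 to 4576) and Krt31 49.4-fold (13.4 to 411.5), and all 4 passed the test. With no adult read in any of 3 libraries, newborn levels were set against a floor of 3 reads over the adult libraries. They were 22.1 times the floor for Krtap17-1, 16.3 times for Krtap3-1, 11.5 times for Krtap1-3 and 7.89 times for Krtap4-16. Counting error of the newborn reads is not covered, so these are not strict lower bounds. These values leaned on newborn wild type 2. Without it, the ratios were 57.5 for Krt72, 156.2 for Krt35, 48.05 for Krt86 and 18.45 for Krt31. Over the floor, the levels were 4.94-fold for Krtap17-1, 9.21-fold for Krtap3-1, 6.48-fold for Krtap1-3 and 4.87-fold for Krtap4-16. The latter still include newborn wild type 1, whose reads of keratin-associated proteins are not taken as expression. For Krtap3-1 that library held 18 of the 29 newborn reads left. Hoxc13 had 31, 115, 20 and 16 newborn reads and 0, 1 and 3 adult reads, and fell by 6.01 ± 1.02 (edgeR adjusted p = 0.00261).

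Padi1 rose by 1.39 ± 0.33 (edgeR adjusted p = 0.0111), and did not pass without newborn wild type 1 (1.28). It stood at 4.14, 6.37, 22.6 and 9.03 CPM in newborns and at 19.6, 26.2 and 33.3 in adults, so that newborn labelled knockout 1 overlapped the adults. Foxn1, which is also made in epidermis, did not pass and stood at 1.41 to 3.03 CPM at birth and 1.65 to 5.83 in adults. Krt84, a keratin of nail and tongue, and Krt27 did not pass either, with Krt27 at 17.9 to 68.2 CPM at birth and 13.1 to 16.8 in adults. Of other follicle genes, 10 of 29 signalling genes fell and 6 rose, and of 22 structure genes 6 fell and 6 rose. Basal epidermis genes rose in 6 of 10 cases and fell in 1, and conjunctival genes in 5 of 5.

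**Figure D5:**
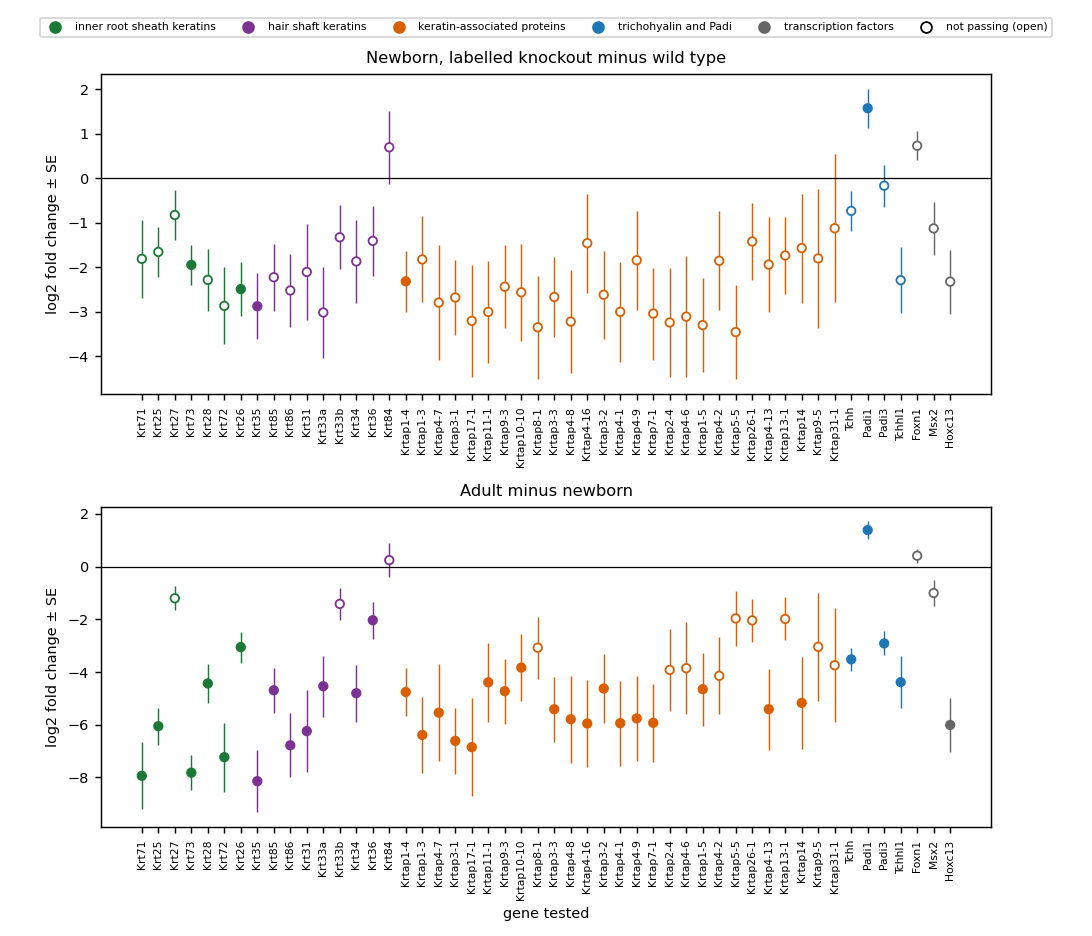
Log2 fold change ± SE of the 50 genes tested, newborn labelled knockout minus wild type (top, 2 against 2 libraries) and adult minus newborn (bottom, 3 against 4 libraries), coloured by role, with filled points where the edgeR adjusted p was under 0.05. Values lie below 0 for 47 of 50 genes in both panels, 5 points are filled at the top and 36 at the bottom. Genes high in newborn wild types had enough reads to be tested more easily.

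In adults, no difference between genotypes was found in these genes. With 1 wild-type library, its spread was taken from the other groups. Of these genes, 0 of 50 passed edgeR's test, against 0.0% of all genes. An unadjusted edgeR p under 0.05 was found for 2 of them, against 506 of all 17592 genes. DESeq2 called 0 of them, against 0.58% of all genes. Foxn1 had the smallest p, with 1.65 CPM in the wild type and 4.80 and 5.83 in labelled knockouts (1.71 ± 0.43, edgeR adjusted p = 0.978). Krt25 stood at 0.23 against 1.54 and 0.74 CPM, Padi3 at 1.01 against 0.75 and 0.46, and Krt36 had 9 against 5 and 1 reads. For Krtap1-4, Tchhl1 and Hoxc13 the wild type had 0 reads and the labelled knockouts 1 to 3 each. Krt71 had 51 reads in labelled knockout 1, the library low in lens and cornea genes, and 1 read in each other adult library. For most of these genes, a difference between adult libraries was not detectable at so few reads.

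The genotype difference itself was compared between ages by an interaction term. Of 50 genes, 0 passed in edgeR, against 0.995% of all genes that were higher and 1.8% that were lower. An unadjusted edgeR p under 0.05 was found for 6 of them, against 3638 of all 17592 genes. Krt26 (3.58 ± 1.17, edgeR adjusted p = 0.139) and Krt25 (3.97 ± 1.37, edgeR adjusted p = 0.156) had the smallest p among genes with reads in all adult groups. DESeq2 called Krt25 alone, which was higher, against 5.22% of all genes. It was thus not shown that the genotype difference of any hair gene differs between newborns and adults.

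At day 3, open and closed eyes were compared within mice, and E24 and E29 alone have 1 eye of each kind. Few hair genes had enough reads there: 10 of 72 were tested, and 0 of the hair shaft keratins or keratin-associated proteins. None passed edgeR's test (2 at an unadjusted p under 0.05), while 0.488% of all genes passed as higher and 0.0594% as lower in open eyes. DESeq2 called 1 gene higher, Foxn1, against 2.18% of all genes. Foxn1 stood at 2.22 (E24) and 3.93 CPM (E29) in the open eyes and at 0.24 and 0.29 in the closed eyes of the same mice (3.47 ± 0.72, edgeR adjusted p = 0.148). Padi3 stood at 2.48 and 14.3 CPM in open and at 0.41 and 0.33 in closed eyes (4.10 ± 1.24, edgeR adjusted p = 0.429). Krt25 had 39 and 45 reads in open and 4 and 3 in closed eyes, and Krt71 had 47 and 35 against 10 and 1. All 4 genes were higher in the open eye of both mice.

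Over the 20 genes with at least 10 reads in these 4 eyes, the open eye was above the closed eye in both mice for 11 (28.5% of all genes) and below it for 3 (28.7%). The 11 were Foxn1, Hoxc13, Krt25, Krt28, Krt33b, Krt35, Krt71, Krt84, Padi1, Padi3 and Tchh, and the 3 were Krt36, Krt73 and Msx2. Genes of the skin surface were called in the same comparison, with 6 of 10 of basal epidermis (Krt14 3.91 ± 0.28) and 3 of 5 of conjunctiva (Krt4 3.09 ± 0.26) higher in open eyes. Basal epidermis summed to 3492 and 6951 CPM in the open and 724.3 and 1097 in the closed eyes of these mice. The part of this in the hair genes was not tested.

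The 3 labelled knockout mice were compared with the heterozygous mouse E28 over summed eyes, and lid state differs with genotype here. Of 60 genes tested, 0 passed edgeR's test, against 0.0% of all genes. An unadjusted edgeR p under 0.05 was found for 0 of them, against 273 of all 16453 genes. DESeq2 called 22, all higher in labelled knockouts, against 0.541% of all genes, and 0 passed in edgeR without E32. Foxn1 stood at 3.08 ± 1.74 on the log2 scale and Padi3 at 5.13 ± 2.37 (edgeR adjusted p = 0.999 for both). In closed eyes alone, their values turned to -1.26 and -0.36. The heterozygous eyes had no read of Krt36, Krt84 or Krtap9-3. Of the 60 genes, 23 had enough reads to be tested without the right eye of E32 and 19 without the mouse, and most had 0 or few reads in the heterozygous eyes, so no median fold is given.

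Against newborn labelled knockouts, the calls for the day-3 labelled knockout mice depended on E32. With it, 0 of 63 genes passed edgeR's test (1 at an unadjusted p under 0.05), against 9.09% of all genes that rose and 4.8% that fell. DESeq2 called 2 higher, Krt73 and Krtap9-3, against 16.5% of all genes. Without E32, 12 genes fell and 1 rose of 53 tested (edgeR), and these 13 stand against 34.2% of all genes called in that fit. Those that fell were led among keratins by Krt71 (-5.09 ± 0.68), Krt25 (-4.41 ± 0.59), Krt85 (-3.42 ± 1.01) and Krt35 (-3.38 ± 0.78), and included Krt26, Krt27, Krt33a, Krtap11-1, Krtap13-1, Krtap26-1, Padi1 and Tchh. Without only the right eye of E32, 0 passed. More genes had enough reads to be tested with that eye than without it, so medians of these fits cover different genes and are not compared. In day-3 libraries, reads in transcripts were 111.2% to 112.4% of the authors' totals, against 102.7% and 104.8% in the newborn labelled knockouts. The part of this in the values was not tested.

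Krt73 differed from the other sheath keratins called without E32, which fell. With E32, all 7 sheath keratins had positive values, and Krt73 did not pass (2.41 ± 0.80, edgeR adjusted p = 0.0815). It stood at 7.10 and 6.84 CPM in newborn labelled knockouts and at 9.23 to 139.0 in the 6 day-3 eyes of labelled knockout mice. Without E32 it passed, at 1.27 ± 0.39 (edgeR adjusted p = 0.0392). Krt31 changed from 4.55 ± 2.39 to -0.12 without the right eye of E32, and Krtap4-7 from 5.71 ± 2.98 to -0.59. Krtap9-5 had 4 and 3 reads in newborn labelled knockouts and none in any day-3 eye.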

How the data were processed

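Poly(A)+ RNA of eyes with eyelids was made into libraries by ligating adaptors to double-stranded cDNA, per the labels' protocols, so the RNA strand is lost. The labels name both fixation and RNAlater for the eyes. Per the submitters' processing notes, the build was mm8 and the tools were TopHat2 2.0.11, Bowtie 0.12.9, CASAVA 1.8 and SAMtools. The counting tool and annotation release are not given in the sources used here. The deposited tables gave the authors' raw read counts per RefSeq transcript (24373, the highest kept for each symbol) and their RPKM values, scaled to exon length and library total. Counts were tested in R 4.3.3 with edgeR 4.0.16 (TMM, filterByExpr, quasi-likelihood, Benjamini-Hochberg threshold 0.05 over all genes tested) and, as an alternative, with DESeq2 1.42.0. SE was the log2 fold change divided by the square root of F. Newborn and adult libraries shared 1 fit. Open and closed eyes at day 3 were compared in a fit with a term for each mouse, and genotypes or ages over counts summed per mouse. Intervals of read ratios are exact binomial at 95% and cover counting error only. Scripts were tested on simulated data.

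Members, lists and comparisons were chosen with earlier results of these data known. Named were genes that passed, up to 12 in each direction, or up to 5 in each direction where fewer than 3 passed, and in each role the 4 with the highest mean RPKM. Genes named after their values were seen are said to be so, and include those with a remaining level in closed eyes. The RefSeq promoters (GRCm38.p6) were matched by accession or symbol, and no coordinates of the build of the files were used. Alternatives were other scalings, filters, transcripts summed, each library or mouse left out, and subsets. Leaving out the right eye of E32 was added after seeing the data.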

Additional observations from a re-analysis of the deposited data

Results flagged for a closer look

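Among the 4 open eyes at day 3, the right eye of E32 lay far from the other 3 eyes. The gap to the next eye, as a share of the whole range of the 4 values, passed Dixon's 95% limit for all 6 sums examined: hair shaft keratins (0.99), inner root sheath keratins (0.95), keratin-associated proteins (0.99), transcription factors (0.91), trichohyalin and deiminases (0.94) and all 72 genes (0.96). It also passed for 16 of the 19 leading genes of the roles. These were Krt31 and Krtap17-1 (both 1.0), Krt85, Krt33a, Krtap3-1, Krtap8-1 and Krtap1-3 (each 0.99), Hoxc13 (0.98), Krt35 (0.97), Krt71, Krt73 and Tchh (each 0.95), Krt25 and Krt27 (each 0.94), Tchhl1 (0.93) and Msx2 (0.89). Foxn1 (0.74), Padi1 (0.73) and Padi3 (0.82) did not pass. Over all 70 hair genes with a read in these eyes, 65 passed, each with the right eye of E32 as the high value. The share of all measured genes that pass this limit was not computed, so these counts have no background to be read against. Chance flags about 1 in 20 groups, and the genes share their libraries.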

How the results depend on the processing

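Of the newborn comparison, 5 genes passed. The count was 13 with DESeq2, against 29.8% of all genes, and 10 to 13 when an adult library was left out, against 27.5% to 29.1%. It was lower than 5 when a newborn library was left out, which leaves 1 in its group. The replicate numbers of newborn libraries are shared only as numbers (correlation of deviations 0.17 over 16126 genes, 2 pairs): in newborn libraries alone, 16 of 37 genes passed with no replicate block and 24 with the replicate block, against 33.6% and 32.7% of all genes. Of the age comparison, 36 passed, against 49.2% of all genes. It was 21 where a mean of at least 10 counts was asked (27 genes tested), against 55.7% of all genes. With a library left out it was 25 to 40, against 42.7% to 48.2% of all genes. DESeq2 gave 1 gene for the genotype-by-age term, 1 for open against closed eyes, 22 for labelled knockout against heterozygous and 2 for day 3 against newborn, where edgeR gave 0 in each. Leaving out a library or mouse gave 0 to 1 gene for the genotype-by-age term, 0 to 13 for day 3 against newborn (13 without E32), and 0 for the other comparisons of day 3. Adult calls among the hair genes stayed at 0 under every alternative run. The ratio of right to left eye of E32, summed over the hair genes per kilobase, was 24.1, and 23.45 in the authors' RPKM.

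Signs turned for Krt36 in the genotype-by-age term, which it did not pass (-1.58 to 0.52 without single libraries). In open against closed eyes, with no block for the mouse, they turned for Krt27 (4.77), Krt73 (1.39) and Msx2 (1.42), and for Krt27 without E29 (0.19, range -0.31 to 0.19 without a mouse). In closed eyes alone, they turned for Foxn1 (-1.26) and Padi3 (-0.36) in labelled knockout against heterozygous. For day 3 against newborn, values without E32 and without its right eye were -0.0021 and -0.12 (Krt31), -2.10 and -0.49 (Krtap2-4), -1.96 and -0.59 (Krtap4-7) and -0.97 and -0.55 (Krtap9-3), while other samples left out gave up to 5.13, 5.98, 6.93 and 4.95. Padi1 ranged from -2.26 without E32 to 0.081 without newborn labelled knockout 1. The cause was not tested, beyond the samples left out.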

Other observations

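The right eye of E32 was also high in genes outside hair and skin, named here after their values were seen. Cd79a, a chain of the B cell receptor, stood at 61.4 CPM there, at 3.80 in the left eye of E32, at 1.12 to 4.92 in the eyes of E24 and E29 and at 17.8 and 4.60 in those of E28. Cd79b, its partner, stood at 48.5 CPM against 4.91 in the left eye, and Cd22, a receptor of B cells, at 13.4 against 0.56. Ms4a1, which encodes CD20 of mature B cells, stood at 1.29 and 1.24 CPM in these eyes.

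The left eye of E32 was the lowest of the 8 day-3 eyes for 3 genes of retinal ganglion cells. Pou4f1 stood at 3.60 CPM there, at 54.5 in the right eye and at 81.9 to 135.6 in the other 6 day-3 eyes. Pou4f2 stood at 1.64, 30.0 and 55.0 to 82.0 CPM in the same order, and Atoh7 at 1.00, 19.6 and 18.8 to 40.2.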
